A study of Mus musculus with 2 samples.

Results

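Genes of the pancreatic ribonuclease (RNase A) family were examined in the dorsolateral prostate of mice that express the microRNA miR-32. Of 10 listed genes, the eosinophil-associated ribonucleases Ear1, Ear2, Ear6, Ear10 and Rnase2a, the angiogenins Ang, Ang2 and Ang4, and Rnase1 and Rnase4, 9 had a probe whose RefSeq accession matched the gene, out of 18952 genes named in this way on the array. They were measured by 11 probes, and Ear2 had none and was not analysed here. The genes were chosen by family membership, and several were picked for higher ratios of transgenic over wild type in these data. Their ratios are therefore a description, and no test was made on them.

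The arrays compared RNA of ARR2PB-miR32 transgenic FVB/N mice with RNA of wild-type FVB/N mice, both at 6 months of age. ARR2PB is a composite probasin promoter, active in prostate epithelium and responsive to androgen, and the cells that carried the transgene's product were not measured here. RNA of 6 transgenic mice and of 6 wild-type mice was combined into 1 pool for each genotype. Both pools were hybridised together on 2 arrays, the transgenic pool in Cy3 and the wild-type pool in Cy5 on array 1, and with the dyes exchanged on array 2. The arrays repeat the same RNA and count as 1 replicate, so every ± gives the SD of both arrays' values and holds no spread between mice. In RNA of whole tissue, a change in the number of cells of a type and a change in the RNA per cell cannot be told apart.

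RNase A family enzymes are small secreted ribonucleases that are held together by disulfide bonds. The family's genes lie in a cluster on mouse chromosome 14 that expanded in rodents into many near-identical copies. The eosinophil-associated members are the mouse relatives of the human eosinophil-derived neurotoxin and eosinophil cationic protein, which are stored in eosinophil granules, and some of them are also made by macrophages and epithelia. Angiogenins are weak ribonucleases, of which human angiogenin promotes the growth of blood vessels. Ang4 is known as an antimicrobial product of Paneth cells in the mouse intestine. Rnase1 encodes the pancreatic-type ribonuclease, and Rnase4 a member that is transcribed from promoters shared with Ang. The cytoplasmic ribonuclease inhibitor, encoded by Rnh1, binds family members tightly and blocks them.

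The mature product of the transgene's microRNA is shown with its seed (bases 2 to 8) in capitals, as RefSeq gives it for GRCm38.p6 (chr4:56895272-56895293, minus strand).
mmu-miR-32-5p: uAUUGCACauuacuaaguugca

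The RefSeq promoter windows of the eosinophil-associated genes with a probe are shown next. Close copies may be read by each other's probes, which was not tested. Each window holds 300 bases, the last 50 of them from the annotated start onward. Probe sequences were not used here. These windows lie mostly upstream of the annotated start, so their likeness does not show which genes a probe reads. All 10 listed genes except Ang2 had a window in the table, with 2 for Rnase4. Capitals in the eosinophil-associated windows mark the longest run of bases found in all 5 of them.
Ear1, chr14:43819590-43819889, minus strand, GRCm38.p6: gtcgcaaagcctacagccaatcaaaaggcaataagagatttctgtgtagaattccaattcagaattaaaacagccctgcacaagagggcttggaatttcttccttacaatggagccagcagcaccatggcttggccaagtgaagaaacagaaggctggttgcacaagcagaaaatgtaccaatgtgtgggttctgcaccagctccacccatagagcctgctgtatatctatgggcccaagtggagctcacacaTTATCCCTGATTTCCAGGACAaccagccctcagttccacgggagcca
Ear10, chr14:43923547-43923846, minus strand, GRCm38.p6: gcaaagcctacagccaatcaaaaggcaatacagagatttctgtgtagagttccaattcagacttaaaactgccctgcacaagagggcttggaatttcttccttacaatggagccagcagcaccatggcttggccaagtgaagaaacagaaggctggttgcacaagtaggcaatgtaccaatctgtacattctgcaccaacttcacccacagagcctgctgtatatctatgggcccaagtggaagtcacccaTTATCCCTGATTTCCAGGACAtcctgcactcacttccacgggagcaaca
Rnase2a, chr14:51256063-51256362, minus strand, GRCm38.p6: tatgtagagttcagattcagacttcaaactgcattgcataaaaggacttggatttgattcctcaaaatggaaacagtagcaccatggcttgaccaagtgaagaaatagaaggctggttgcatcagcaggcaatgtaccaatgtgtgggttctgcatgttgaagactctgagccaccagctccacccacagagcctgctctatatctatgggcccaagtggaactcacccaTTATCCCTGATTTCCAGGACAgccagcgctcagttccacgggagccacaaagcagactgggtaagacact
Ear6, chr14:51853518-51853817, plus strand, GRCm38.p6: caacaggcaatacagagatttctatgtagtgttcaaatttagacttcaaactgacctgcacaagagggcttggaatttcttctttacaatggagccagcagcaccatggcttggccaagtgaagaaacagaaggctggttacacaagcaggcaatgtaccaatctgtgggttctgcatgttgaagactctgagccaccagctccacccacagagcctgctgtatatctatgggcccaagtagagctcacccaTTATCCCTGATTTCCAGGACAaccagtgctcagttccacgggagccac
The run is 21 bases long and begins at base 254 of the Ear1 window, 252 of Ear10, 231 of Rnase2a and 253 of Ear6. It occurred in 7 of the 32851 windows of the table on either strand (0.0213%), those of Ear1, Ear2, Ear6, Ear10, Rnase2a, Ear14 and Rnase2b.

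In a global alignment, the windows of Ear1 and Ear2 had 294 identical bases and those of Ear1 and Ear10 had 277. Rnase2a was the most distant, with 226 bases identical to Ear1 and 249 to Ear6. Over the 10 pairs of eosinophil-associated windows the identical share was between 74.3% and 98% of the window. Over the 26 other pairs of different windows it was between 49.3% and 56.7%.

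**Figure D1:**
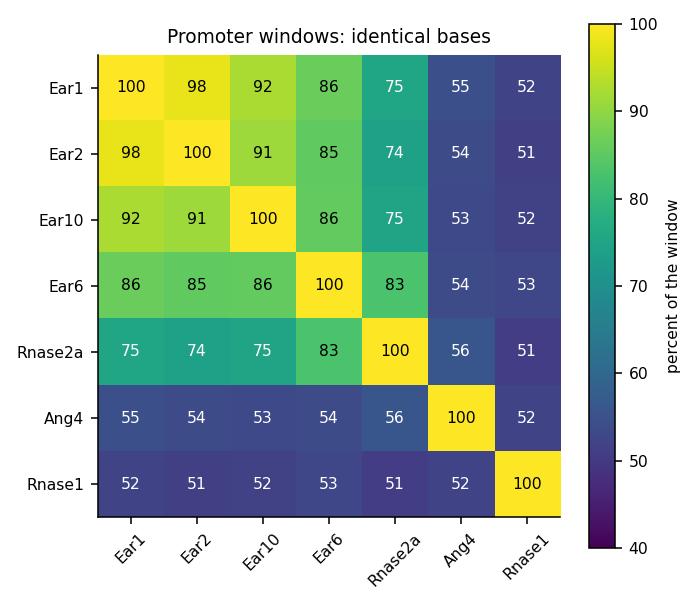
Identical bases between promoter windows of 7 genes, as a percentage of the window, with colour from 40 to 100 percent. The 5 eosinophil-associated genes form a block between 74.3% and 98%, while Ang4 and Rnase1 stay at or under 56% with every other gene shown.

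Ang and Rnase4 have the same first window, which RefSeq gives for both genes. Capitals mark its 2 copies of the CCAAT motif.
Ang and Rnase4, chr14:51090827-51091126, plus strand, GRCm38.p6: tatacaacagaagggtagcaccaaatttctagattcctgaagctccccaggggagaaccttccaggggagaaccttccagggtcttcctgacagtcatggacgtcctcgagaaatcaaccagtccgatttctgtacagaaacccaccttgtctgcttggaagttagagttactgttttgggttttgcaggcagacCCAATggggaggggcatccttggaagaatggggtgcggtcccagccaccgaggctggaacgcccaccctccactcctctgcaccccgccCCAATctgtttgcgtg
With that shared window counted once, 7 of 9 different windows of listed genes held CCAAT or its reverse complement ATTGG, a motif found in 37.4% of all windows. Those with the motif include the close copies of Ear1, Ear2, Ear6, Ear10 and Rnase2a. The 9 windows are therefore not separate counts, here or for the motifs below. The canonical TATA box TATAAA, or TTTATA on the other strand, was in 0 of the 9 and in 13.6% of all windows. The half-site AGAACA of the androgen receptor, or TGTTCT, was in 1 of the 9, the second window of Rnase4, and in 19% of all windows. A match in these windows is a description of the letters and no measure of binding.

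A probe counted as detected when the same pool, of either genotype, was well above background on array 1 and on array 2, and as higher or lower when its log2 ratio of transgenic over wild type reached 1.5-fold (0.585 in log2) in the same direction on each array. Intensities below were normalized by loess within arrays and by Aquantile between them, and have no unit. They include an offset of 50 added before normalization, so a probe at background does not read 0. Of 17153 detected probes, 157 (0.915%) were higher and 224 (1.31%) were lower in the transgenic pool. With centring on the median in place of loess the split was 4 to 881 (0.0233% and 5.14%), and in the authors' deposited table of log2 ratios it was 351 to 186 (4.13% and 2.19%). Cy5 was weak, with 21.1% of spots well above background on array 2 and 42.1% on array 1, against 57% and 58.3% in Cy3. The median difference between the 2 arrays of a detected probe was 0.39 in log2. All 11 prostate epithelial genes of a marker list were detected in both pools, 0 of them higher, 4 lower and 7 neither, with 9 of 11 means below 0. The 9 include Krt8 (−0.01) and Cdh1 (−0.02), which hardly differed from 0. Over all 10435 detected genes, 6198 means were below 0 and 1.3% of genes were lower. The lower ones were Spink1, a trypsin inhibitor gene (−6.29 ± 0.23), Sbp, which encodes spermine-binding protein (−3.18 ± 0.42), Msmb (−0.86 ± 0.37) and Hoxb13 (−0.69 ± 0.02), while Tgm4, the prostate transglutaminase gene, was neither (0.70 ± 0.64).

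Of the 10 detected family probes, 4 were higher in the transgenic pool, 0 were lower and 6 were neither. This is 40% of them against 0.915% of all detected probes, which follows in part from how the genes were chosen. The higher probes were those of Ear1, Ear10, Rnase2a and Ang4, and all 10 detected probes were well above background in both pools on both arrays. The median log2 ratio of these 10 was 0.44, against −0.05 for all 17153 detected probes, of which 8506 were detected in both pools. These sets thus differ in how they passed the filter. By role, 3 of 3 detected eosinophil-associated probes were higher, 1 of 3 angiogenin probes and 0 of 4 probes of Rnase1 and Rnase4. Close copies may be read by each other's probes, so the 3 eosinophil-associated calls may not stand for 3 separate genes, which was not tested. The same count of 4 higher family probes stood in the deposited table, where 4.13% of probes were higher. Keeping only probes detected in both pools drops no family probe, so the count of 4 could not change there. Among all probes so detected, 1.76% were higher and 1.39% lower. Counted as genes, 4 of 8 detected members were higher, beside 0.91% of all detected genes.

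Ear1, an eosinophil-associated ribonuclease, had normalized intensities of 459 and 489 in the transgenic pool on arrays 1 and 2, against 157 and 163 in the wild-type pool. Both transgenic readings lay above both wild-type readings, and the arrays differed less than for the median probe. For this and the members below, the share of all detected probes with readings apart in this way is not given here. The log2 ratio was 1.54 on array 1 and 1.59 on array 2, a mean of 1.56 ± 0.03 or 2.96-fold. By this mean Ear1 ranked 16th from the highest of the 17153 detected probes.

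Ear10 lies next to Ear1 in the order of the family's protein-coding genes on the chromosome. It had 252 and 238 in the transgenic pool and 104 and 105 in the wild-type pool (normalized intensity, arrays 1 and 2). The pools again did not overlap. Its log2 ratios were 1.27 and 1.19, with a mean of 1.23 ± 0.06 (2.34-fold). The ratio of Ear10 was thus below that of Ear1 on each array.

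Rnase2a, also known as Ear11, had 442 and 250 in the transgenic pool, against 89.3 and 164 in the wild-type pool. The pools did not overlap, but the arrays disagreed on the size of the difference, which was 4.96-fold on array 1 and 1.52-fold on array 2. The log2 ratios were 2.31 and 0.60, with a mean of 1.46 ± 1.20, and array 2 lay just inside the threshold of 0.585. Without background correction the ratio of array 2 was 0.44, and with scaling between the arrays it was 0.57, and either ended the call. The scanner software's log ratios were 2.64 and 2.42, so that the disagreement between arrays was 0.22 with those ratios and 1.70 with loess.

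Ear6 was not detected by the rule, because each pool was well above background on 1 array, in Cy3 each time. Its intensities were 164 and 138 in the transgenic pool, the second not well above background, and 75.6 and 102 in the wild-type pool, the first not well above background. The log2 ratios of 1.12 and 0.44 therefore rest on a Cy5 reading near background on each array. No call was made for Ear6.

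**Figure D2:**
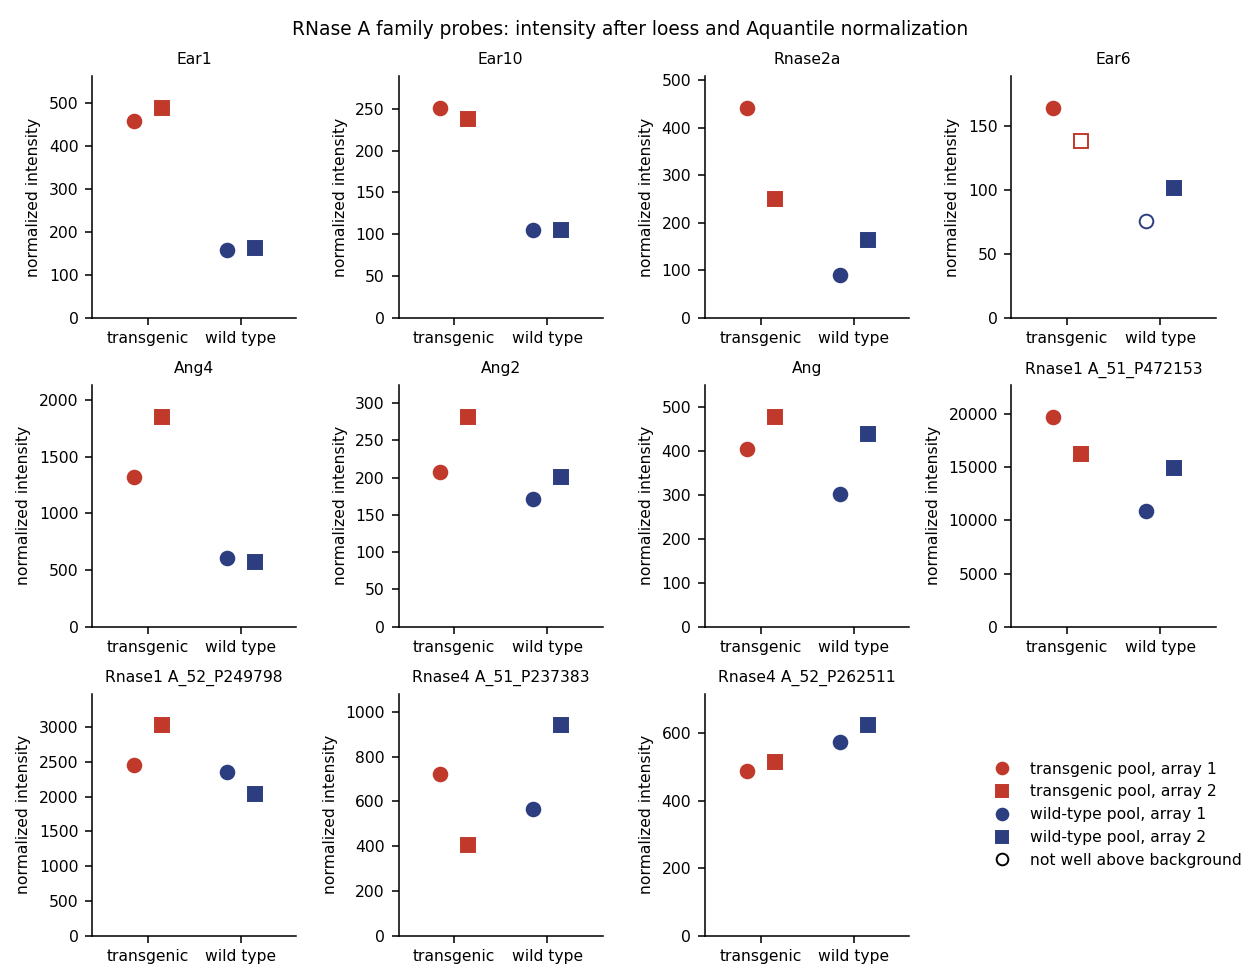
Normalized intensity (no unit, linear axes from 0) of each of the 11 probes in the transgenic and the wild-type pool, with circles for array 1 and squares for array 2, and open symbols for readings not well above background. Ear1, Ear10, Rnase2a and Ang4 have both transgenic readings above both wild-type readings. So do Ang2 and both Rnase1 probes, which were not called, and Ear6 with an open symbol in each pool. The share of all detected probes with such a separation is not given here, and axes differ between panels.

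Among the angiogenins, Ang4 was the member past the size rule. Its intensities were 1319 and 1857 in the transgenic pool, against 602 and 573 in the wild-type pool, with no overlap. The log2 ratios were 1.13 and 1.70, with a mean of 1.41 ± 0.40 (2.66-fold). Ang4 has a promoter window unlike those of the eosinophil-associated genes, with at most 56% identical bases, and lies between Rnase2a and Ear6 in the gene order.

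Ang2, which encodes the angiogenin-related protein, had 208 and 282 in the transgenic pool and 171 and 201 in the wild-type pool. The transgenic readings were above the wild-type readings, with log2 ratios of 0.28 and 0.49 (mean 0.38 ± 0.15, 1.31-fold) that did not reach the threshold on either array. Ang, the angiogenin gene itself, had 405 and 478 in the transgenic pool and 303 and 437 in the wild-type pool. Its pools overlapped, and its log2 ratios were 0.42 and 0.13 (mean 0.27 ± 0.20). With centring on the median, which moved the median of all detected probes to −0.47, the means of Ang2 and Ang were −0.18 and −0.48, still above that median for Ang2 and next to it for Ang.

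Rnase1 was read by 2 probes, neither past the rule. The probe A_51_P472153 had 19772 and 16263 in the transgenic pool and 10911 and 14892 in the wild-type pool, with log2 ratios of 0.86 and 0.13. The probe A_52_P249798 had 2456 and 3028 in the transgenic pool and 2356 and 2046 in the wild-type pool, with log2 ratios of 0.06 and 0.57. Both probes were above 0 on both arrays, while the larger ratio fell on array 1 for the first and on array 2 for the second. Their means were 0.49 ± 0.52 and 0.31 ± 0.36, both turning below 0 with centring on the median (−0.59 and −0.64), and the first probe reached the rule without background correction (0.75 and 0.73).

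Rnase4 also had 2 probes. The probe A_52_P262511 had 489 and 516 in the transgenic pool, against 574 and 623 in the wild-type pool, with log2 ratios of −0.23 and −0.27 (mean −0.25 ± 0.03). The probe A_51_P237383 had 720 and 406 in the transgenic pool and 564 and 939 in the wild-type pool, with log2 ratios of 0.35 and −1.21 (mean −0.43, the arrays 1.56 apart). The arrays thus opposed each other in sign at the second of these probes and nearly coincided at the first. Rnase4 and Ang, whose annotated first windows are the same, had means of opposite sign here, though both were below 0 with centring on the median, and the difference between these probes was not tested.

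**Figure D3:**
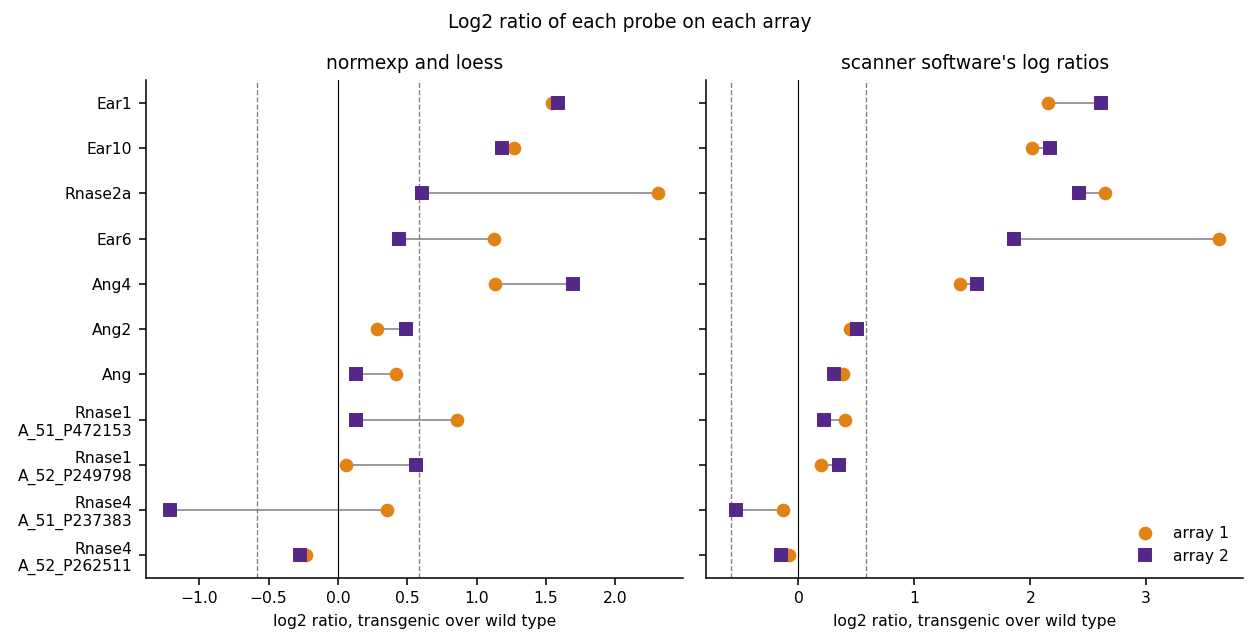
Log2 ratio of transgenic over wild type for each probe on array 1 (circles) and array 2 (squares), after normexp and loess on the left and as the scanner software gave it on the right, with dashed lines at 1.5-fold. Ear1, Ear10, Rnase2a and Ang4 lie right of the upper line on both arrays in both panels, and Rnase2a and Rnase4 A_51_P237383 have the arrays farther apart on the left.

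The ratios were also taken as the scanner software had computed them. These gave 5.22-fold for Ear1 (log2 2.15 and 2.61 on arrays 1 and 2), 4.26-fold for Ear10 (2.01 and 2.17), 5.78-fold for Rnase2a and 2.77-fold for Ang4 (1.40 and 1.54). The eosinophil-associated ratios were thus larger than with loess by more than 1.5 times, while that of Ang4 was nearly the same size. The loess means themselves moved with the offset added before normalization. With an offset of 16, Ear1 went from 1.56 to 1.82, Ear10 from 1.23 to 1.59 and Rnase2a from 1.46 to 1.77. Ang4 went from 1.41 to 1.49. The part of the offset in the gap between scanner and loess ratios was not tested. With the scanner software's ratios, the same 4 of 10 detected probes were higher and 0 were lower, beside 3.01% and 6.63% of all detected probes. By these ratios Ear1, Rnase2a and Ear10 ranked 13th, 9th and 28th. The rank of Ang4 was 181, against 29 with loess. Of the other members, Ang was at 0.35, Ang2 at 0.47, the Rnase1 probes at 0.31 and 0.27 and the Rnase4 probes at −0.33 and −0.12. The family's median difference between arrays was 0.16 with these ratios and 0.40 with loess, against 0.46 and 0.39 over all detected probes. All 10 family probes were detected in both pools, against 8506 of the 17153. These medians are thus of unlike sets and do not show that the family was read more evenly.

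**Figure D4:**
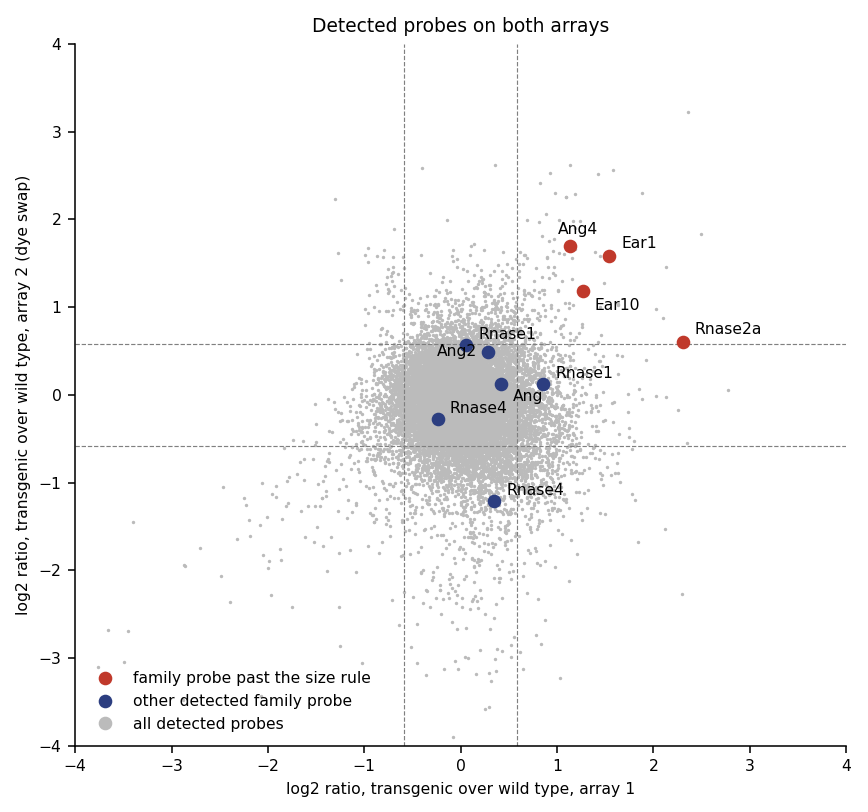
Log2 ratio of transgenic over wild type on array 1 (x axis) against array 2 (y axis) for detected probes (grey), with family probes past the size rule in red, the others in blue and dashed lines at 1.5-fold, and with 5 probes beyond the axes not drawn. Ear1, Ear10, Ang4 and Rnase2a lie in the upper right region, Rnase2a at 0.60 on array 2, and 1 Rnase4 probe lies at −1.21 on array 2.

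With centring on the median in place of loess, 0 of 10 family probes were called, as were 0.0233% of all detected probes in the higher direction. The means of Ear1, Ear10, Rnase2a and Ang4 were then 0.94, 0.86, 0.96 and 0.54, all above the median of −0.47 over all detected probes. On array 2 alone their centred ratios were 0.37, 0.46, −0.37 and −0.01, against a median of −0.92. The 4 probes were above 0 in all 8 alternative means computed for each, which include each array alone, where a called probe is above 0 by definition.

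Of 11 other genes of the family on a further list, 4 had a probe, those of Rnase2b, Rnase6, Rnase9 and Rnase10, and none was detected. Their spot signals net of local background were between −9 and 18.5 in both pools and on both arrays. Rnase2b, also called Ear5, holds the 21-base run of the eosinophil-associated windows, and its net signals were 5.5 and 9.5 in the transgenic pool and 6.0 and 7.5 in the wild-type pool. The family's readings were therefore at background for these 4 genes and well above it for 8 of the 9 members with a probe.

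Rnh1, the ribonuclease inhibitor gene, was just short of the size rule in the lower direction. It had 451 and 639 in the transgenic pool and 654 and 935 in the wild-type pool, with log2 ratios of −0.54 and −0.55 (mean −0.54 ± 0.01). Its scanner log ratios averaged −0.66. Plxnb2, a plexin reported as a receptor for angiogenin, had 330 and 385 in the transgenic pool, against 354 and 462 in the wild-type pool, with log2 ratios of −0.10 and −0.26. A second probe of Plxnb2 was not detected. Among 12 ribonucleases of other families, 10 were detected, 9 were neither higher nor lower and 1, Drosha, was higher (0.90 ± 0.44), by its brighter probe. The other detected probe of Drosha read −0.30 and −0.16, the mean over both probes ended the call, and the scanner software's ratios did not make it (0.34 on array 1). The median of the 10 was −0.07, and the largest fall among them, that of Rnasek, was −0.71 ± 0.69 and missed the rule.

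Defining markers of eosinophils were at background in both pools. Of 9 listed markers 8 had probes, and those of the granule proteins Epx, Prg2 and Prg3, the surface receptors Siglecf and Il5ra, and the lipoxygenase Alox15 were well above background in neither pool on either array. The net signals of Epx were 6.0 and −1.0 in the transgenic pool and −2.0 and 4.0 in the wild-type pool. Of 2 probes of the chemokine receptor Ccr3, 1 was above background once, in the transgenic pool on array 1. Adgre1, which encodes F4/80 and is also a macrophage marker, was detected through the wild-type pool (−0.60 ± 0.17). The summed intensity of the list's 10 probes was 727 and 744 in the transgenic pool and 802 and 744 in the wild-type pool. Of these probes 1 was detected. Normalized intensities include the offset, and Epx, at background, had 65.4 and 69.1 in the transgenic pool and 65.8 and 63.8 in the wild-type pool. The sums are therefore mostly background and do not compare eosinophil signal between the pools.

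**Figure D5:**
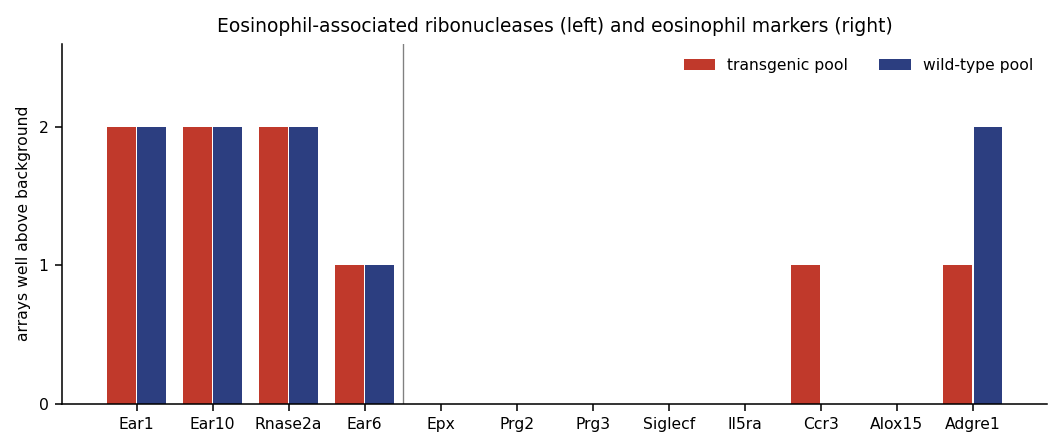
Number of arrays (of 2) on which each gene's probe was well above background in the transgenic (red) and wild-type (blue) pool, for 4 eosinophil-associated ribonucleases on the left and 8 eosinophil markers on the right. Ear1, Ear10 and Rnase2a reach 2 in both pools, while 6 of the 8 markers are at 0 in both, Ccr3 being read once and Adgre1 3 times.

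None of 3 detected genes of eosinophil recruitment and growth passed the rule. Ccl11, the eotaxin gene, had 878 and 672 in the transgenic pool, against 1427 and 772 in the wild-type pool (−0.45 ± 0.35), with a mean of 0.07 by the scanner's log ratios. Ccl24 was at −0.28 ± 0.41 and Il33 at −0.39 ± 0.39, while Il5, Il4, Il13, Tslp and Csf2 were not detected.

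Markers of macrophages, which can make eosinophil-associated ribonucleases, were also read. Of 8 detected genes, 2 were lower (C1qc at −0.75 ± 0.23 and Mrc1 at −0.67 ± 0.10), 6 were neither, and each of the 8 had a mean under 0 (median −0.61, against −0.06 over all detected genes). Of these 8, 6 passed the detection filter through the wild-type pool alone, which favours means under 0, so the count and the median support no direction. The background share of lower genes was 1.3%. The summed intensity of the list's 12 probes was 1351 and 1568 in the transgenic pool and 1972 and 2216 in the wild-type pool. Of 8 neutrophil markers, 2 were detected and 1, Ltf, was lower (−0.78 ± 0.12). Both passed the filter through the wild-type pool alone. The part of these cells in the values of the ribonucleases was not tested.

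Lists of other cells known for family products were read as well. Of 14 pancreatic acinar genes on the array, 4 were detected, 2 of them higher, Pnliprp1 (2.09 ± 0.29), a lipase-related gene, and Ctrb1 (0.93 ± 0.19), a chymotrypsinogen gene. The share of higher genes over all detected genes was 0.91%. The other 2 detected genes, Clps and Cel, passed the filter through the wild-type pool alone. Clps and Cel were neither (0.24 ± 0.22 and 0.21 ± 0.14), and among the other acinar markers Cpa1, Cpb1, Prss2, Cela1, Cela2a, Cela3b, Pnlip and Ptf1a were well above background in neither pool on either array. The summed intensity of these 14 probes was 8016 and 9779 in the transgenic pool and 3047 and 3013 in the wild-type pool, most of it from Pnliprp1. Rnase1, the pancreatic-type member, did not pass the rule beside them.

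All 4 Paneth cell genes with a probe were detected, and of these 2 were lower and 2 were neither. Lyz1, a lysozyme gene (−1.57 ± 0.21), and Reg3g, an antimicrobial lectin gene (−2.41 ± 0.66), were lower, while Itln1 (−0.38 ± 0.50) and Mmp7 (−0.17 ± 1.13) were neither. For Lyz1 and Reg3g, 1 array alone read the transgenic pool well above background, so that both passed the filter through the wild-type pool. The summed intensity of the list was 19123 and 12055 in the transgenic pool and 15446 and 21590 in the wild-type pool, so that the pools overlapped. Most of each sum was Mmp7, with 16778 and 8931 in the transgenic pool and 10832 and 17513 in the wild-type pool. The part of acinar or Paneth cells in the values of Rnase1 and Ang4 was not tested. Among 6 hepatocyte genes, known for angiogenin and Rnase4 in liver, Alb, Apoa1, Ttr and Fgb were at background in both pools, and Tat and Cyp2e1 were detected but not called (0.01 ± 0.10 and −0.69 ± 0.25). Of 7 seminal vesicle genes, Ceacam10 was detected, through the wild-type pool alone, and lower (−1.36 ± 0.14), and the other 6 were not detected.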

How the data were processed

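Expression was measured on 2-colour Agilent arrays from 100 ng of total RNA, per the labels' protocols. The deposited spot and background signals are median pixel intensities from Feature Extraction 11.0.1.1, neither background-subtracted nor dye-normalized, and the deposited log10 ratio of Cy5 over Cy3 comes from the software's processed intensities, per the file headers. The authors' deposited table of 8533 rows is in log2. It matched the software's ratio of transgenic over wild type with r and slope of 1 and had a median of 0 on each array, and how its rows were filtered was not stated.

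Signals were processed with limma 3.58.1 in R 4.3.3, by normexp with an offset of 50 and loess within arrays, with control and outlier spots at weight 0. Of 41174 non-control probes, 27816 were named by unversioned accession through a RefSeq table of GRCm38.p6. The file headers cite another build for the array, so coordinates are given for RefSeq windows only. No non-control spot was saturated. The precision is limited by the number of arrays, by 1 pool per genotype and by the weak Cy5 signal. Where a gene had several probes, lists used its brightest detected probe. Calls, alternatives and lists are stated with the results, and windows were aligned with Biopython 1.88.

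Members and lists were chosen with earlier results of these data known, and several members were picked for their higher ratios. All member probes are described, and the rule named up to 4 detected genes of each further list by the size of their mean ratio. Further genes are named to account for a whole list. No p-value was computed, because the arrays repeat the same pools.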

Additional observations from a re-analysis of the deposited data

How the results depend on the processing

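No paired analysis was possible because both arrays hold the same pair of pools. Ear1, Ear10 and Ang4 kept their call in 7 of 8 alternatives each, and Rnase2a in 5 of 8, and no called family probe changed the sign of its mean. The 8 include each array alone, where a probe called on both arrays keeps its call by definition. They also include the deposited table, which repeats the scanner software's ratios, so they are not 8 separate checks. Median centring ended all 4 calls, leaving 0 family probes higher and a family median of −0.33, with 4 probes higher and 881 lower among all. The family median was 0.56 without background correction, and 0.53 to 0.64 on single arrays. Family probes called higher numbered 4 to 5 on single arrays, and 0 to 1 were lower, namely the Rnase4 probe A_51_P237383 on array 2. Over all probes, 517 were higher and 1138 lower with the scanner software's log ratios, 351 higher in the deposited table, 264 and 407 with an offset of 16, and 38 and 64 at 2-fold. Single arrays gave 857 to 1493 higher and 907 to 2398 lower, and 118 were lower when detected in both pools. Of the genes on all further lists, 13 were called, against 6 in the deposited table, which holds 27 of the 47 detected. Macrophage genes called lower numbered 6 with the scanner software's log ratios, against 2. Of all detected probes, 6.63% were lower with those ratios, against 1.31% with loess. Of the 8 detected macrophage genes, 6 passed the filter through the wild-type pool alone, so this count supports no direction. The cause of these shifts was not tested. Cy5 readings near background on both arrays limit what can be read of Ear6.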
